A study of Mus musculus with 35 samples.

Results

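The Iroquois homeobox genes of the mouse, Irx1 to Irx6, were followed across sorted epithelial cells of skin and mouth. The members were selected by name, as the 6 rows that carry these names out of 53715 genes listed in the back skin tables and 49585 in the tail and oral tables. The family was proposed with earlier results of these data in view, so its levels between tissues are given as a description, and tests are restricted to contrasts between sorted cells. In all, 35 libraries of 13 groups were measured by total RNA sequencing, with n = 3 libraries in each skin group and n = 2 in each oral group. Every animal was of strain C57BL/6J, 2 months old, and carried K5-tTA with pTRE H2B-GFP, in which the keratin 5 promoter drives a histone-GFP fusion until doxycycline shuts it off. Doxycycline chow was given for 2 weeks before skin and for 10 days before oral tissue was taken. Label-retaining cells (LRC, slow-cycling) had kept the GFP label and non-label-retaining cells (nLRC, fast-cycling) had lost it. Both classes came from basal cells of back, tail, palate and tongue and, in back skin, also from spinous cells. Granular cells (back) and cells of the hair follicle bulge (back and tail), labelled as hair follicle stem cells, completed the groups. The label can mark only cells in which the keratin 5 promoter was active, and the sources used here do not give the antibodies of the sort.

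Iroquois proteins are transcription factors of the TALE homeobox superclass, a class whose homeodomain carries extra residues between the first and second helices and which also holds the Meis, Pbx and Tgif proteins. They are best known for dividing tissues into territories in development, in the neural plate, heart, limb and retina. In mammals the genes lie in paired clusters that arose by duplication, so Irx1 and Irx3, Irx2 and Irx5, and Irx4 and Irx6 are counterparts.

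On mm10 the first cluster lies on chromosome 13 over 1.312 Mb and holds Irx1 (ENSMUSG00000060969.9, 71957921 to 71963723, minus strand), Irx2 (ENSMUSG00000001504.10, 72628820 to 72634198, plus strand) and Irx4 (ENSMUSG00000021604.15, 73260479 to 73269608, plus strand). The second lies on chromosome 8 over 0.882 Mb and holds Irx3 (ENSMUSG00000031734.13, 91798525 to 91802067, minus strand), Irx5 (ENSMUSG00000031737.11, 92357625 to 92376286, plus strand) and Irx6 (ENSMUSG00000031738.14, 92674288 to 92680956, plus strand). Because the members are close relatives, their sequences bear on how reads can be told apart. The 60 coding bases that span the recognition helix of the homeodomain are shown for each gene, read 5′ to 3′ on the coding strand from GENCODE transcripts, with capitals at the 9 positions that are not the same in all 6 genes.
Irx1: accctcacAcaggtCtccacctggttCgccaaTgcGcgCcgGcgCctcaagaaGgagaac
Irx2: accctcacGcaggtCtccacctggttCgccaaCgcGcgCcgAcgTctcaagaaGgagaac
Irx3: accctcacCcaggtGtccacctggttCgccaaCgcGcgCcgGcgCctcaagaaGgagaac
Irx4: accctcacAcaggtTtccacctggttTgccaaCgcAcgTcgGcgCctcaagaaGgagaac
Irx5: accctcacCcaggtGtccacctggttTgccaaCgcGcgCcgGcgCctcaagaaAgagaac
Irx6: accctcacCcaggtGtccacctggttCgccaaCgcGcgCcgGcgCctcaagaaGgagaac
These stretches lie in exon 2 of the transcripts used for Irx1, Irx2, Irx3 and Irx5, exon 5 of Irx4 and exon 4 of Irx6. All 9 differing positions are the third bases of codons, and the 6 stretches encode 1 peptide. Irx3 and Irx6 are identical over the 60 bases, and their transcripts share a run of 88 identical bases. Over the 15 pairs of members the longest shared run was 23 to 88 bases, with 65 for Irx2 and Irx5 and 50 for Irx3 and Irx5. How reads that match several genes were treated is not known from these sources, so a part of each member's reads could be assigned to a relative. Irx3 also overlaps its antisense transcript Irx3os over 1653 bases and Irx6 the antisense Gm45505 over 785 bases, and whether strand was used in counting is not given. Irx3os itself held 0 to 69 reads per library, against 1 to 1947 for Irx3.

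A back library held 9785944 to 20560481 gene reads, a tail library 8421582 to 14093720, a palate library 11680595 to 15641556 and a tongue library 11847897 to 13034075. Levels are given as TPM, which is scaled by gene length and so allows genes to be compared, or as CPM, the reads scaled to library size with TMM factors within a tissue, which is used for contrasts. Protein-coding genes took 68.04 to 87.01% of the deposited TPM in back libraries. The share was 20.11 to 31.79% in tail, 21.76 to 28.08% in palate and 25.75 to 29.97% in tongue libraries. TPM was therefore recomputed over the 21264 protein-coding nuclear genes listed in both kinds of table. That scale is used where levels of members are set side by side between tissues, unless the deposited TPM is named. Marker sums are of the deposited TPM, so their sizes do not compare between back and the other tissues. Whether replicate libraries stem from different animals is not labelled. The p-values therefore reflect spread among samples alone, and that spread may be technical. In bulk samples, fewer cells of a type and less RNA per cell cannot be told apart. Back bulge library 2 stood apart, with the lowest read total of the back libraries and a scaling that raises its CPM, and results that rest on it are also given without it. Basal markers (6 genes) summed to 54647 to 84049 TPM in back basal libraries, bulge markers (7 genes) to 392 to 3228 TPM in back bulge and 506 to 745 TPM in tail bulge, and oral markers (5 genes) to 466 to 12486 TPM in oral and 0 to 8.30 TPM in skin libraries. Adjusted p-values are from edgeR's quasi-likelihood test with Benjamini-Hochberg adjustment over all genes tested, log2 fold changes carry their SE, and a gene is said to have risen or fallen where the adjusted p was under 0.05.

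As a sum, the family stood high in skin and low in the oral epithelia. Irx4 was an exception, and Irx1 in palate overlapped the skin groups in which it was lowest. Summed over the 6 members, protein-coding TPM was 458 ± 111 (SD) in back basal LRC and 590 ± 159 in back basal nLRC libraries, 553 ± 139 in tail basal LRC and 194 ± 9.01 in tail basal nLRC. In palate the sum was 63.4 ± 14.9 in LRC and 85.7 ± 53.9 in nLRC libraries, and in tongue 41.2 ± 10.6 and 54.4 ± 0.446. The highest sums were those of the back bulge (1064 ± 516) and the back spinous nLRC (981 ± 127). Irx6 was the member with next to no signal: 9 reads in all, in 4 of 35 libraries, and at most 4 in a library. For the libraries with 0 reads, counting error alone allows up to 3 reads, which corresponds to 0.141 to 0.613 CPM across the 35 libraries.

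**Figure D1:**
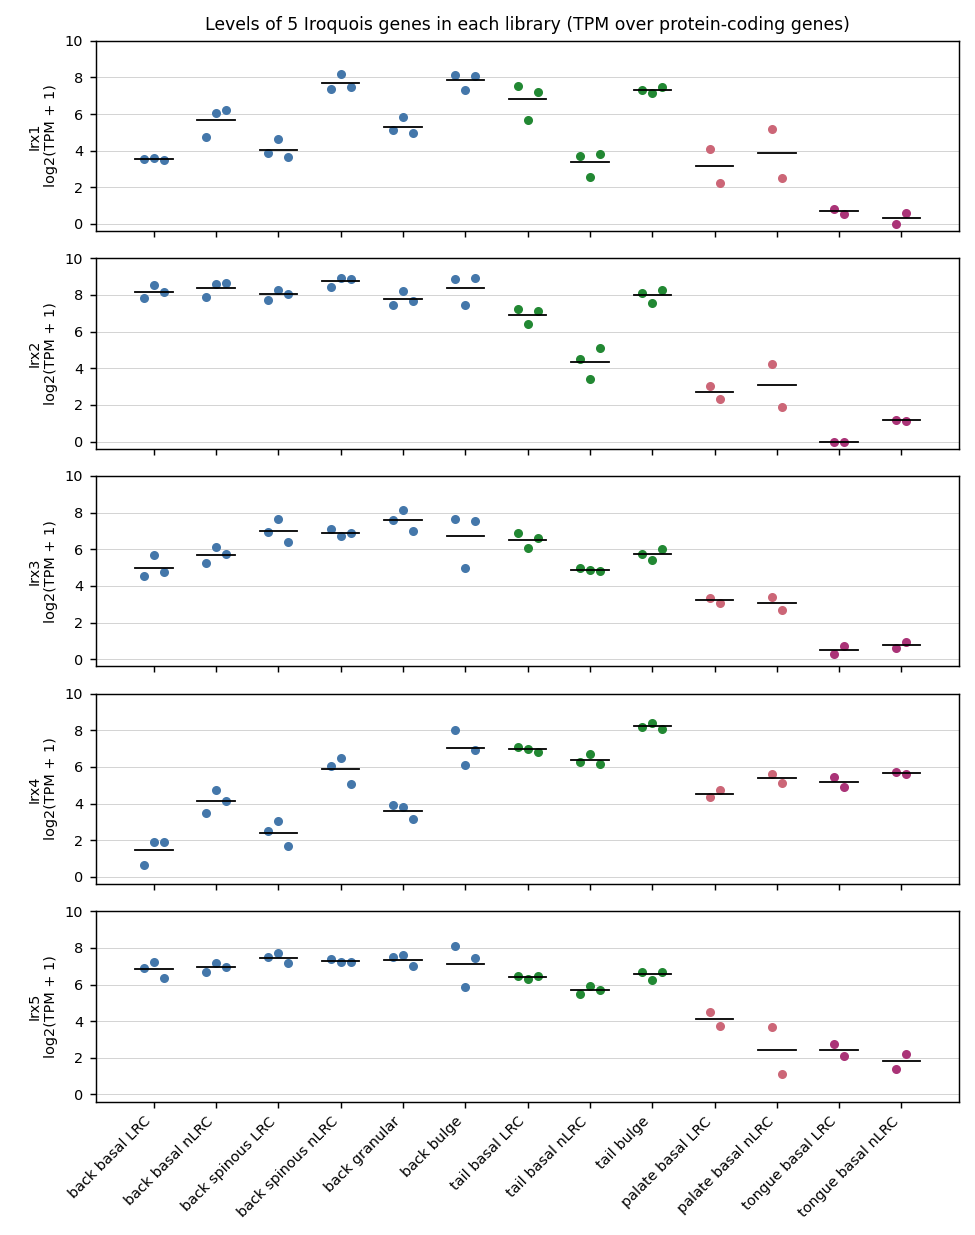
Levels of Irx1 to Irx5 in each library, as log2(TPM + 1) with TPM recomputed over protein-coding genes (vertical axis), by group (horizontal axis). Each point is a library and each bar the mean of the plotted values, in blue for back skin, green for tail skin, pink for palate and purple for tongue. The bars of Irx2, Irx3 and Irx5 are lower in palate and tongue than in skin, though Irx2 overlaps between tail basal nLRC and palate nLRC. Irx2 and Irx3 are lower again in tongue than in palate, while Irx5 overlaps between palate nLRC and tongue. Irx4 is lowest in back basal LRC libraries.

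Irx2 ranked highest of the family in back skin. On the protein-coding TPM scale its group means ran from 223 (granular) to 433 (spinous nLRC) over the 6 back groups, and neighbouring groups in that order overlapped. Tail bulge (260 TPM) fell inside this range, tail basal LRC followed at 124 TPM with no overlap, and tail basal nLRC at 21.5 TPM. Palate held 10.3 TPM in nLRC and 5.61 TPM in LRC libraries, whose ranges overlapped. In tongue, Irx2 had 0 and 0 reads in LRC and 7 and 8 reads in nLRC libraries. Of the 12 steps between neighbouring groups in the order of Irx2, the ranges of 8 overlapped.

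Irx5, the counterpart of Irx2 in the second cluster, followed the same order of tissues over a narrower range. Its group means lay between 115 and 178 TPM in back skin, between 51.1 and 93.6 TPM in tail skin, at 17.1 and 6.46 TPM in palate LRC and nLRC and at 4.50 and 2.63 TPM in tongue LRC and nLRC. Irx3 reached 200 TPM in the granular layer, its highest group, and 33.0 TPM in back basal LRC, its lowest back group. Tail groups held 28.6 to 93.3 TPM of Irx3, palate 7.56 to 8.37 TPM, and tongue 0.413 to 0.720 TPM from 1 to 4 reads per library.

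Irx1 varied between the skin groups. Its highest group means were those of back bulge (237 TPM), back spinous nLRC (210 TPM), tail bulge (158 TPM) and tail basal LRC (127 TPM), which overlapped in sequence. The lowest skin means were 10.6 TPM in back basal LRC and 10.0 TPM in tail basal nLRC. Palate held 9.89 TPM in LRC and 20.2 TPM in nLRC libraries, each with its pair of libraries far apart, and tongue 0 to 3 reads.

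Irx4 was ordered differently. Tail bulge led with 297 TPM and did not overlap the next group, back bulge, at 149 TPM, but on the deposited TPM back bulge led (122 against 70.5 TPM) and on CPM (96.0 in tail and 90.0 in back) as on the deposited TPM the groups overlapped. Tail basal LRC (125 TPM) and nLRC (83.2 TPM) followed. Tongue nLRC (49.6 TPM), palate nLRC (41.1 TPM) and tongue LRC (35.7 TPM) all stood above back basal nLRC (17.4 TPM), and back basal LRC was lowest at 2.00 TPM. On the deposited TPM back basal nLRC (14.1 TPM) stood instead above tongue nLRC (13.8), palate nLRC (10.5) and tongue LRC (9.90), with overlapping neighbours, while back basal LRC was lowest on each scale. On the deposited TPM the ratio of back basal to tail basal level was 11.7 for Irx2, 4.80 for Irx5 and 0.253 for Irx4, and recomputed over protein-coding genes it was 4.39, 1.77 and 0.0932. For Irx1 and Irx3 the direction depended on the scale, at 1.27 and 1.88 on the deposited TPM, 0.481 and 0.702 over protein-coding genes, and 0.769 and 0.992 on CPM. The TMM factors of CPM were set separately in back and tail, so CPM values of these tissues, also those of Irx4, share no common scaling.

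Shares of the summed Iroquois TPM within a library are the same on both TPM scales. In back basal LRC libraries Irx2 made up 64.9 ± 5.29% (SD, n = 3) and Irx5 25.4 ± 5.56%, while Irx1 and Irx4 added 2.38 ± 0.454% and 0.427 ± 0.272%. In back bulge libraries Irx2 had 35.3 ± 3.84%, Irx1 24.5 ± 6.86% and Irx4 13.8 ± 3.82%. The granular layer was split between Irx2 (35.2 ± 5.69%), Irx3 (30.7 ± 4.37%) and Irx5 (26.2 ± 3.50%). In tail basal nLRC libraries Irx4 led with 42.7 ± 6.81%, and in tongue it made up 86.6 ± 0.515% of LRC and 91.1 ± 3.73% of nLRC (n = 2 each). The member with the highest TPM was Irx2 in every back library except those of the granular layer, where Irx2 or Irx3 led, and Irx4 in every tongue library.

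**Figure D2:**
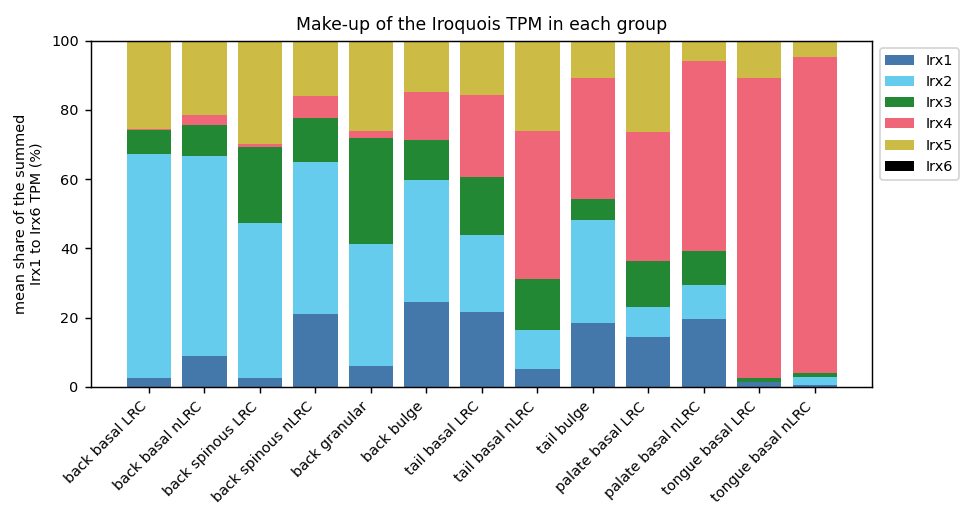
Mean share of each member in the summed Irx1 to Irx6 TPM of a library (vertical axis, percent, from 0), by group (horizontal axis). Irx2 fills 64.9% of the bar in back basal LRC, and Irx4 fills 91.1% in tongue nLRC libraries.

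The upstream sequences of Irx2 and Irx4 are shown because these members of the first cluster differed in their order over the groups. Both are from RefSeq (GRCm38.p6), read 5′ to 3′ on the gene's plus strand up to the first annotated exon base, with every CG dinucleotide in capitals. The Irx2 stretch is chr13:72628570-72628819 and the Irx4 stretch is chr13:73260247-73260478.
Irx2: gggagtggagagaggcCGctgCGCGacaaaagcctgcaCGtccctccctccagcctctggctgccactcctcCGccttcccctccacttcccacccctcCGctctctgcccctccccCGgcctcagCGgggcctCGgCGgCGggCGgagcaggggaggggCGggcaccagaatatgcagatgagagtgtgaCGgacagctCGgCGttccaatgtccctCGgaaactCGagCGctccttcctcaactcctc
Irx4: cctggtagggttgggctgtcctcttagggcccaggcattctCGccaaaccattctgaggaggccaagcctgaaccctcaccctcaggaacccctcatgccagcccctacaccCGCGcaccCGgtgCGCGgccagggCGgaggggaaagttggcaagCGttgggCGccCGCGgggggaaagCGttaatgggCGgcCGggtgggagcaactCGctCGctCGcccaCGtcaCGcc
The Irx4 stretch is shorter than the window counted, which runs on into the annotated first exon. Over the whole 250-base window before the RefSeq start there were 19 CG dinucleotides at Irx2 and 22 at Irx4, against a median of 6 over 32851 such windows. Windows with at least as many made up 19.7% of all for Irx2 and 14.8% for Irx4. The palindromic motif ACANNTGT, bound by Iroquois proteins, was in neither window on either strand and in 6.31% of all windows. These letters describe the windows and say nothing of binding. Of the 6 members, 3 had an entry in the promoter table (Irx2, Irx3 and Irx4).

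In the basal layer of back skin, slow-cycling cells held less Irx1 and Irx4 than fast-cycling cells. Irx1 stood at 3.87, 5.37 and 4.66 CPM in LRC libraries 1 to 3 and at 10.4, 29.4 and 33.6 CPM in nLRC libraries 1 to 3. Every LRC library lay below every nLRC library, and nLRC library 1 was the lowest of its group. The log2 fold change was −2.40 ± 0.45 (5.26-fold lower, adjusted p = 0.0360). Irx4 stood at 0.302, 1.42 and 1.25 CPM in LRC and at 4.47, 13.3 and 9.06 CPM in nLRC libraries. Again the groups did not overlap, and LRC library 1, with 5 reads, was lowest (−3.16 ± 0.54, 8.94-fold lower, adjusted p = 0.0307). Thus 2 of 5 tested members fell, where 0.235% of all 16574 genes tested passed in either direction. Irx2 (104 to 199 against 122 to 239 CPM), Irx3 (8.10 to 21.9 against 15.6 to 31.0 CPM) and Irx5 (49.0 to 82.6 against 55.5 to 83.7 CPM) overlapped between the groups and did not pass. The median log2 fold change over the 5 tested members was −0.75, and over all genes −0.0081. Both calls ended in a fit of these 6 libraries alone (adjusted p = 0.0572 for Irx1 and 0.0735 for Irx4), in limma on log2(TPM + 1) (0.266 and 0.307) and without any 1 of LRC libraries 1, 2 or 3 or nLRC libraries 2 or 3 (0.129 to 0.227 for Irx1 and 0.0957 to 0.196 for Irx4).

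Markers of sebocytes, the lipid-filled cells of the sebaceous gland, and of the upper follicle moved with this contrast. The 6 sebocyte genes summed to 150 to 194 TPM in LRC and 244 to 541 TPM in nLRC libraries, none of them at 0, and 1 of 6 fell (Mgst1, −3.54 ± 0.66). The 4 upper follicle markers summed to 143 to 197 TPM in LRC and 202 to 330 TPM in nLRC libraries, none at 0, and 0 of 4 passed. The part of these cells in the Irx1 and Irx4 results was not tested.

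The same members fell in slow-cycling cells of the spinous layer, the first layer above the basal one. Irx1 stood at 5.10, 10.7 and 4.73 CPM in LRC and at 64.5, 138 and 84.4 CPM in nLRC libraries. No library of one group reached the other, and the fold was 14.0 (−3.81 ± 0.47, adjusted p = 8.39e-05). Irx4 stood at 2.31, 3.55 and 0.985 CPM in LRC and at 31.9, 48.4 and 19.3 CPM in nLRC libraries, likewise without overlap (−3.86 ± 0.53, 14.5-fold lower, adjusted p = 0.000172). Here 2 of 5 tested members fell, beside 15.5% of all genes past the test, and the members' median was −0.84 (−0.014 over all genes). Irx2 was lower in all LRC libraries (105 to 166 against 168 to 297 CPM) at −0.84 ± 0.32, with an adjusted p of 0.0898, and at 0.00171 with the replicate number as a block. Irx3 (0.06 ± 0.39) and Irx5 (0.10 ± 0.22) had values near 0 and overlapped between the groups. Sebocyte markers were far apart as well, at 268 to 381 TPM in LRC and 2677 to 6543 TPM in nLRC libraries, and 6 of 6 fell. Upper follicle markers summed to 521 to 1913 TPM in LRC and 2317 to 2824 TPM in nLRC libraries (2 of 4 fell). Spinous markers (5 genes) went the other way, at 24501 to 41056 TPM in LRC and 4404 to 10044 TPM in nLRC libraries (4 of 5 rose). The part of these cells in the Irx results was not tested. A test of the spinous against the basal LRC effect called 0 of 5 members (0.392% of all genes, 1 member at an unadjusted p under 0.05 and 0 in DESeq2), with −1.41 ± 0.61 for Irx1 and −0.70 ± 0.73 for Irx4.

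**Figure D3:**
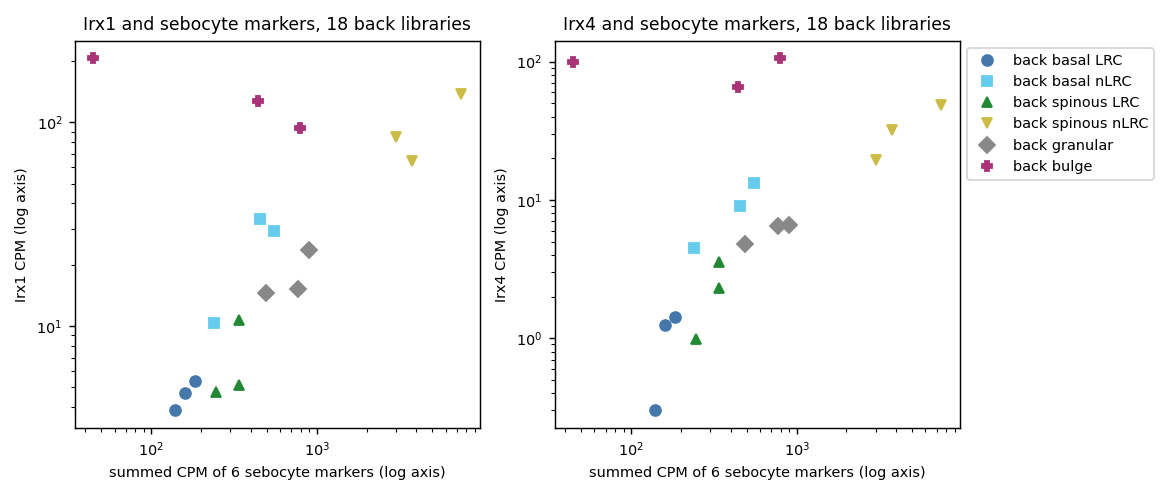
CPM of Irx1 (left) and Irx4 (right) on the vertical axis against the summed CPM of 6 sebocyte markers on the horizontal axis, both log axes, in the 18 back skin libraries, with symbols by group. The 2 axes differ in scaling: the Irx CPM carries TMM factors, while the marker sums are scaled to total reads alone. Spinous nLRC libraries are high on both axes. Back bulge library 2 has 206 CPM of Irx1 at the lowest marker sum of all 18 (44.8 CPM). Its TMM factor raises the Irx CPM but not the marker sum.

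Between the layers, Irx3 was the member for which every spinous library, of either label class, stood above every basal one. In basal libraries Irx3 ran from 8.10 to 31.0 CPM and in spinous libraries from 36.4 to 85.1 CPM, without overlap (1.58 ± 0.28, 2.99-fold, adjusted p = 0.00185). Irx1 (1.26 ± 0.31, adjusted p = 0.0146) and Irx4 (1.54 ± 0.36, adjusted p = 0.0118) also rose over the mean of both classes, though their libraries overlapped. That made 3 of 5 tested members, beside 9.07% of all genes, with a members' median of 1.26 (0.0053 over all genes). Among LRC groups alone Irx3 kept its call (1.98 ± 0.41, adjusted p = 0.0074), while Irx1 (0.56 ± 0.45, adjusted p = 0.626) and Irx4 (1.19 ± 0.56, adjusted p = 0.281) did not. Among nLRC groups alone Irx1 (1.97 ± 0.43, adjusted p = 0.0152) and Irx4 (1.89 ± 0.47, adjusted p = 0.0330) passed and Irx3 had 1.18 ± 0.40 (adjusted p = 0.125). Without spinous LRC library 2, Irx1 and Irx4 had adjusted p = 0.0618 and 0.0571. Irx5 (0.46 ± 0.16) missed the threshold (adjusted p = 0.0817, and 0.0352 with the replicate number as a block), and Irx2 had 0.09 ± 0.22. Of the spinous markers, 4 of 5 rose. Their sum was 24501 to 41056 TPM in spinous LRC libraries. In spinous nLRC libraries it was 4404 to 10044 TPM, which overlapped the 4400 to 7297 TPM of basal libraries. Upper follicle markers were higher in spinous (521 to 2824 TPM) than in basal libraries (143 to 330 TPM), with 3 of 4 past the test, and sebocyte markers had 4 of 6 past it. The part of upper follicle and sebocyte cells in these results was not tested.

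Granular cells were compared with the mean of both spinous groups, and 0 of 5 members passed (4.01% of all genes, 1 member at an unadjusted p under 0.05 and 0 in DESeq2). Irx3 stood at 84.0, 125 and 59.4 CPM in the granular layer, overlapping the spinous range (0.71 ± 0.33, adjusted p = 0.305). Irx1 at 14.5 to 23.7 CPM lay above all spinous LRC and below all spinous nLRC libraries, and so did Irx4 at 4.83 to 6.54 CPM. Against spinous nLRC alone, Irx1 (−2.43 ± 0.44, adjusted p = 0.00157), Irx4 (−2.48 ± 0.49, adjusted p = 0.00278) and Irx2 (−0.9999 ± 0.32, adjusted p = 0.0462) fell. Many more genes passed there than in the main contrast, 2350 against 664 of the 16574 tested. Against spinous LRC alone the sign turned for Irx1 (1.38 ± 0.44, adjusted p = 0.197) and Irx4 (1.38 ± 0.50, adjusted p = 0.300). With the replicate number as a block Irx2 fell in the main contrast (−0.57, adjusted p = 0.0201). Granular markers (6 genes) summed to 287 to 1176 TPM in granular libraries, overlapping spinous LRC (117 to 336 TPM), and 2 of 6 rose. Upper follicle markers summed to 6886 to 10824 TPM in granular libraries against 521 to 2824 TPM in spinous ones, and 3 of 4 rose. The part of upper follicle cells in the Irx values was not tested.

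The back skin bulge held more of 4 members than the basal layer. Irx4 stood at 106, 99.0 and 65.4 CPM in bulge libraries 1 to 3, against 0.302 to 13.3 CPM in the 6 basal libraries (4.91 ± 0.42, 30.0-fold, adjusted p = 3.75e-07). Irx1 stood at 93.7, 206 and 127 CPM, against 3.87 to 33.6 CPM (3.73 ± 0.36, 13.3-fold, adjusted p = 1.18e-06). All bulge libraries were above all basal ones for both genes, whether LRC or nLRC libraries served as the reference. Irx3 stood at 64.9, 41.1 and 88.1 CPM against 8.10 to 31.0 CPM (1.82 ± 0.33, adjusted p = 0.000525). Irx5 stood at 123, 96.3 and 102 CPM against 49.0 to 83.7 CPM (0.67 ± 0.19, adjusted p = 0.0130). Irx2 overlapped between the groups, at 197 to 286 against 104 to 239 CPM (0.53 ± 0.27, adjusted p = 0.160). So 4 of 5 tested members rose, beside 26.3% of all genes, with a members' median of 1.82 (0.057 over all genes). The calls of Irx3 and Irx5 ended in limma on log2(TPM + 1) (adjusted p = 0.0998 and 0.745), where bulge library 2 had deposited levels of 20.5 TPM of Irx3 and 39.5 TPM of Irx5, below every other back bulge library. That of Irx5 also ended without bulge library 1 (adjusted p = 0.0581) and against basal nLRC alone (0.0760). Without bulge library 2 the count was 4.

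Bulge libraries also carried markers of other cells. Melanocyte markers (6 genes) summed to 12.7 to 451 TPM in back bulge against 11.4 to 25.1 TPM in basal libraries, endothelial markers (4 genes) to 8.63 to 311 TPM against 0 to 0.500 TPM, and fibroblast and dermal papilla markers (8 genes) to 3.10 to 28.5 TPM against 0.140 to 1.08 TPM. Of these, 6 of 6 melanocyte, 4 of 4 endothelial and 4 of 6 tested fibroblast and dermal papilla markers rose. Upper follicle markers summed to 185 to 1201 TPM against 143 to 330 TPM (4 of 4 rose), and sebocyte markers to 27.5 to 906 TPM against 150 to 541 TPM (4 of 6 rose). In bulge library 2, 1 of 6 melanocyte markers (Tyr) and 3 of 8 fibroblast and dermal papilla markers (Pdgfra, Pdgfrb and Lum) were at 0 reads. The part of these cells in the results was not tested.

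In tail skin the slow-cycling basal cells held more of the family, the reverse of back skin for Irx1. Irx1 stood at 53.3, 12.6 and 37.6 CPM in LRC and at 4.69, 1.68 and 3.49 CPM in nLRC libraries. The groups did not overlap, library 2 was lowest in both, and the fold was 10.4 (3.38 ± 0.50, adjusted p = 0.00454). Irx2 stood at 63.2, 28.4 and 49.5 CPM in LRC and 11.8, 4.48 and 13 CPM in nLRC libraries (2.26 ± 0.38, 4.79-fold, adjusted p = 0.00935). Irx3 stood at 38.1, 18.1 and 26.9 CPM against 12.9, 9.99 and 8.40 CPM (1.41 ± 0.27, 2.66-fold, adjusted p = 0.0149). For both genes every LRC library lay above every nLRC library. Without LRC library 3 or nLRC libraries 2 or 3 the call of Irx3 was lost, at adjusted p = 0.0541 to 0.0652. Irx5 was higher in all 3 LRC libraries (30.6 to 38.1 against 21.4 to 27.3 CPM, 0.53 ± 0.16) but did not pass (adjusted p = 0.0926, and 0.0425 with the replicate number as a block). Irx4 overlapped, at 35.3 to 47.8 against 24.1 to 37.5 CPM (0.33 ± 0.22, adjusted p = 0.386). The count was 3 of 5 tested members, beside 4.6% of all genes, with a members' median of 1.41 (0.022 over all genes).

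Follicle markers rose with them. The 4 upper follicle markers summed to 276 to 592 TPM in LRC and 48.7 to 69.9 TPM in nLRC libraries, and 4 of 4 rose. The 7 bulge markers summed to 260 to 383 TPM in LRC and 61.7 to 94.2 TPM in nLRC libraries, and 4 of 7 rose, with Cd34 and Lgr5 at 0 in nLRC library 3. Sebocyte markers went the other way, at 54.6 to 71.3 TPM in LRC and 118 to 178 TPM in nLRC libraries. The part of follicle cells in the Irx results was not tested.

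The difference between the LRC effects of tail and back basal layer was itself tested in a fit of the 12 basal libraries. It passed for Irx1 (5.78 ± 0.78, adjusted p = 0.00138), Irx4 (3.49 ± 0.60, adjusted p = 0.00629) and Irx2 (2.52 ± 0.57, adjusted p = 0.0320), beside 2.9% of all genes. Irx3 had 2.15 ± 0.53 (adjusted p = 0.0528) and Irx5 0.68 ± 0.29 (adjusted p = 0.309). Back and tail tables were made separately, which this fit treats as a constant shift per gene. Irx2 lost its call when any 1 of 8 of the 12 libraries was left out (adjusted p = 0.0575 to 0.0863 in those fits). Of the markers, 4 of 4 upper follicle and 3 of 6 tested bulge genes also differed in this test, all in the direction of tail, and 2 of 6 sebocyte genes did.

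**Figure D4:**
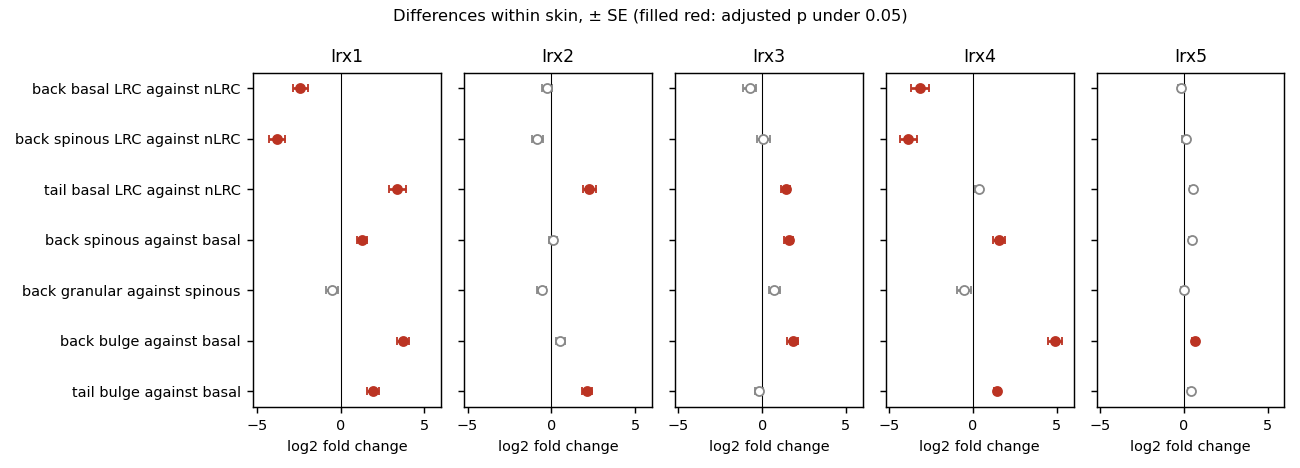
Log2 fold change of Irx1 to Irx5 (horizontal axis, 1 panel per gene) in 7 comparisons within back or tail skin (vertical axis). Points are edgeR estimates with bars of ± SE, filled red where the adjusted p was under 0.05 and open grey otherwise. Irx1 lies at −2.40 and −3.81 in the back LRC contrasts and at 3.38 in the tail contrast.

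The tail bulge exceeded the basal layer in Irx4 against either label class, and in Irx1 and Irx2 depending on it. Irx4 stood at 97.3, 118 and 73.0 CPM in bulge libraries against 24.1 to 47.8 CPM in basal ones (1.43 ± 0.18, adjusted p = 0.000284), 1.26 ± 0.22 against LRC alone and 1.59 ± 0.22 against nLRC alone. Irx2 stood at 107, 77.1 and 97.9 CPM, above all 6 basal libraries (2.13 ± 0.30, adjusted p = 0.000587). Irx1 stood at 42.4, 40.7 and 39 CPM, inside the range of LRC and above that of nLRC libraries (1.93 ± 0.38, adjusted p = 0.00438). Against LRC alone Irx1 had 0.24 ± 0.43 (adjusted p = 0.759) and Irx2 0.999 ± 0.36 (adjusted p = 0.0825). Irx3 stood at 16, 13.3 and 15.6 CPM, below all LRC and above all nLRC libraries. Against LRC alone Irx3 fell (−0.89 ± 0.26, adjusted p = 0.0390), against nLRC alone it had 0.52 ± 0.27 (adjusted p = 0.200), and over both −0.19 ± 0.23. Irx5 had 0.41 ± 0.13 (adjusted p = 0.05001, just over the threshold). In total 3 of 5 tested members rose, beside 24.6% of all genes, with a members' median of 1.43 (−0.012 over all genes). Endothelial markers summed to 6.06 to 41.2 TPM in tail bulge and 0.07 to 0.26 TPM in basal libraries, and their part was not tested.

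In palate no member passed between slow- and fast-cycling basal cells (0 of 5, beside 0% of 14923 genes, 1082 at an unadjusted p under 0.05 and 12 adjusted in DESeq2, none of them a member). Irx4 stood at 7.02 and 9.61 CPM in LRC and 17.6 and 18.4 CPM in nLRC libraries, without overlap (−1.12 ± 0.24, unadjusted p = 0.000996 and adjusted p = 0.640 in edgeR). Irx5 went the other way, at 9.64 and 5.61 against 5.39 and 0.901 CPM (1.21 ± 0.67, adjusted p = 0.640). Irx1 differed more within the groups than between them, at 4.88 and 1.15 CPM in LRC and 11.2 and 2.32 CPM in nLRC libraries. Irx2 stood at 3.17 and 2.23 CPM in LRC and at 8.36 and 1.80 CPM in nLRC libraries, which overlapped, and Irx3 stood at 2.77 to 3.32 CPM in all 4. Without nLRC library 1, which leaves 1 nLRC library assumed to vary like the others, the log2 fold change was −1.13 for Irx4 and 3.09 for Irx5.

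In tongue 0 of 5 members passed (0.0067% of all genes, 696 at an unadjusted p under 0.05, 88 adjusted in DESeq2, none of them a member). Irx4 stood at 14.5 and 12.8 CPM in LRC and at 18.8 and 17.2 CPM in nLRC libraries (−0.40 ± 0.23). Irx5 had 33 and 27 reads in LRC and 9 and 21 reads in nLRC libraries (1.01 ± 0.74). Irx2 had 0 reads in both LRC libraries and 7 and 8 reads in nLRC libraries. With LRC set to a floor of 3 reads per library, the nLRC mean was 2.34-fold that floor. The floor covers counting error of the LRC libraries only. Error in the few nLRC reads is left out, so this fold is not a lower bound. Irx1 and Irx3 were at 0 to 4 reads in all tongue libraries, and a difference was not detectable at this depth. Adjusted p was 1 for Irx4 and Irx5 and 0.575 for Irx2.

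Of the other TALE homeobox genes (12 listed, 10 tested), 0 passed in the back basal LRC contrast, the spinous against basal and the granular against spinous contrast, and in palate and tongue. In tail LRC cells 2 of 10 rose (4.6% of all genes passed), Meis2 (2.14 ± 0.30, adjusted p = 0.00342) and Pbx3 (1.40 ± 0.24, adjusted p = 0.0100), which encode cofactors of Hox proteins. Both also differed between tail and back LRC effects, by 2.00 ± 0.38 and 1.59 ± 0.33. In spinous LRC cells 2 of 10 passed beside 15.5% of all genes, Pbx4 with a rise (2.74 ± 0.53) and Pbx2 with a fall (−0.79 ± 0.19). In back bulge 3 of 10 rose and 2 fell, beside 26.3% of all genes past the test, led by Pbx3 (1.93 ± 0.24), Pknox2 (2.90 ± 0.51), Meis2 (−1.97 ± 0.36) and Pbx4 (−2.48 ± 0.50). In tail bulge 2 of 10 rose, Tgif1 (0.89 ± 0.12) and Meis2 (1.60 ± 0.24), a share near the 24.6% of all genes past the test. The list's median log2 fold change was 0.0053 in the back basal, −0.15 in the back spinous and 0.40 in the tail LRC contrast, 0.29 in back and 0.22 in tail bulge, against medians over all genes of −0.0081, −0.014, 0.022, 0.057 and −0.012.

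Of the genes in and around the clusters (19 listed, 18 tested in skin), 0 passed in the back basal LRC contrast. The listed genes lie up to 2346.479 kb from a cluster, and Nsun2 lies 2322.141 kb from that on chromosome 13. In spinous LRC cells 5 of 18 rose and 2 fell, beside 15.5% of all genes past the test, among them Mrpl36 (−1.38 ± 0.26), which begins 58.905 kb from the chromosome 13 cluster, and Lpcat1 (−1.83 ± 0.36), 197.589 kb from it. Aktip (0.88 ± 0.18) and Nkd2 (2.00 ± 0.47) rose. In tail LRC cells 2 of 18 rose, beside 4.6% of all genes: Crnde (1.37 ± 0.22, adjusted p = 0.00594), a long noncoding RNA gene inside the chromosome 8 cluster next to Irx5, and Fto (0.94 ± 0.18, adjusted p = 0.0170), 130.086 kb from it. In back bulge 2 of 18 rose and 5 fell, beside 26.3% of all genes, with Slc6a2 at −4.49 ± 0.41, Lpcat1 at 1.92 ± 0.27, Nsun2 at −0.69 ± 0.12 and Nkd2 at 1.99 ± 0.40. In tail bulge 3 of 18 rose and 3 fell, beside 24.6% of all genes, led by Nsun2 (−0.97 ± 0.11), Lpcat1 (2.35 ± 0.27), Slc6a2 (−2.48 ± 0.39) and Mmp2 (1.06 ± 0.19). Spinous against basal cells had 3 higher and 2 lower (9.07% of all genes), and granular against spinous cells 2 higher and 1 lower (4.01% of all genes). In palate and tongue 0 of 17 passed. The list's median was 0.030 in the back basal, 0.18 in the back spinous and 0.034 in the tail LRC contrast.

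Across the 13 group means of log2(TPM + 1), here on the deposited TPM and so with its shift between back and other tables, Pearson's r between members was 0.975 for Irx2 and Irx5, 0.974 for Irx3 and Irx5 and 0.948 for Irx2 and Irx3, and 0.863 for Irx1 and Irx2. With Irx4, r was 0.579 for Irx1, 0.188 for Irx2, 0.215 for Irx3 and 0.134 for Irx5. Recomputed over protein-coding genes, r was 0.955 for Irx2 and Irx5, 0.958 for Irx3 and Irx5, 0.934 for Irx2 and Irx3 and 0.825 for Irx1 and Irx2. On that scale Irx4 had 0.390 with Irx1 and turned to −0.085 with Irx2, −0.022 with Irx3 and −0.119 with Irx5. Over the 18 back libraries (log2 CPM) the closest pair was Irx1 and Irx4 at 0.967, followed by Irx3 and Irx5 at 0.855, while Irx2 and Irx5 had 0.271. These are descriptions over points that share libraries, tables and tissue, with depth in common. Among 13192 other genes over the group means of the deposited TPM, the most alike were Sostdc1 (0.952), Angptl2 (0.935) and Raver2 (0.934) for Irx1, and Jun (0.987), Hoxb3 (0.980) and Hoxb6 (0.979) for Irx2. Those for Irx3 included Tada2b (0.981) and Crnde (0.978), those for Irx4 were Nedd9 (0.912), Gng7 (0.893) and Spata7 (0.892), and those for Irx5 Zbtb16 (0.988), Crnde (0.987) and Ccdc32 (0.985). These names rest on the scale: over protein-coding TPM, 0 of the 3 remained among the 3 most alike for Irx3 and 1 of 3 for each of Irx1, Irx2, Irx4 and Irx5. The lowest r of a gene so chosen was then 0.789 for Irx1, 0.941 for Irx2, −0.332 for Irx3, 0.820 for Irx4 and 0.431 for Irx5. Over the back libraries, among 12524 genes, Irx1 was most like Smpdl3b (0.961), Fgf1 (0.955) and Tgfb3 (0.950), and Irx4 most like Bnc2 (0.958), Enpp1 (0.958) and Piwil2 (0.957). Irx2 came closest to Cdkn2aipnl (0.904), Slc30a5 (0.895) and Irs2 (0.888), Irx3 to Slc40a1 (0.931), Fhdc1 (0.910) and Nebl (0.903), and those closest to Irx5 included Scd3 (0.858) and Scd2 (0.841).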

How the data were processed

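For each library the authors deposited a gene table of read counts, TPM and RPKM, per the file headers. Judged from the values, the deposited counts may hold exon and intron reads and TPM exon reads. For example, Irx3os had 4 reads but a TPM of 0 in back basal nLRC library 1. This was not tested, and CPM and TPM may rest on different reads. The RPKM column was not used. The build was mm10 per the submitters' processing notes, while aligner, counter and annotation are not named in these sources. Per the labels' protocols, libraries were made with a stranded total RNA kit. The counts of the 18 back, 9 tail and 8 oral libraries were fitted separately in edgeR 4.0.16 under R 4.3.3, with TMM scaling, filterByExpr (minimum count 10, minimum total 15) and group means, and adjusted over all genes tested. The quasi-likelihood test was run, and tried on simulated counts, with an outcome not reported here. In that trial the changed genes were well covered and the spread followed the trend over all genes. It therefore does not cover members with few reads. Alternatives were DESeq2 1.42.0, size factors by median of ratios, keeping low counts, limma 3.58.1 on log2(TPM + 1) or log2(TPM + 0.1), the replicate number as a block, other reference groups or libraries, and each library left out. The test of tail against back LRC effects, TPM over protein-coding genes and fits without the libraries that stood apart were added after seeing the data. The members and lists were chosen with earlier results of these data known. Named genes were the 6 members, up to 4 genes per list and comparison with the smallest p among those past the test, and the 3 genes most alike by Pearson's r, of which some are not reported here.

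Labels repeat the replicate numbers in each group without saying what they mark. Deviations from the group means were correlated between same-numbered libraries. For LRC and nLRC libraries r was 0.233 to 0.322 in back basal, 0.163 to 0.291 in back spinous and 0.326 to 0.585 in tail basal cells. It was 0.198 to 0.314 for spinous and basal LRC and 0.269 to 0.324 for granular and spinous LRC. The numbers may therefore pair these libraries. Libraries with different numbers were not correlated for reference, so a pairing is not established. The reported fits hold no block, and the block is an alternative. Bulge with basal LRC libraries had 0.0364 to 0.233 in back and −0.0436 to 0.426 in tail skin.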

Additional observations from a re-analysis of the deposited data

Results flagged for a closer look

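The LRC effect differed between tail and back basal layer for 3 members, by a test of the difference itself that was added after seeing the data. For Irx1 it was 5.78 ± 0.78 on the log2 scale, with every LRC library below every nLRC library in back skin and above in tail skin. For Irx4 the difference was 3.49 ± 0.60, from a fall in back and no call in tail skin, and for Irx2 it was 2.52 ± 0.57, from no call in back and a rise in tail skin. The difference for Irx2 lost its call when any 1 of 8 of the 12 libraries was left out. In back skin the falls of Irx1 and Irx4 ended in an edgeR fit of the basal libraries alone (adjusted p = 0.0572 and 0.0735). Sebocyte markers were lower in LRC libraries of both tissues, while the sum of the upper follicle markers was higher in every tail LRC library and lower in every back basal LRC library than in any nLRC library of the same tissue, with 4 of 4 past the test in tail and 0 of 4 in back skin. The part of these cells in the difference was not tested.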

How the results depend on the processing

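Of 839 values of single members under an alternative, 749 kept direction and side of the threshold, 43 lost and 26 gained the call, and 21 turned sign, none of them past the test on either side. Irx1, Irx2 and Irx3 in tongue, with 0 to 8 reads per library, are not among these values. In the back basal LRC contrast the count of members past the test was 2, and 0 in limma on log2(TPM + 1), in limma on log2(TPM + 0.1) and in a fit of the groups compared alone, and 0 to 2 with a library left out. Spinous against basal counted 3 members, 1 in limma on log2(TPM + 0.1), 1 among LRC groups alone and 1 to 4 with a library left out. Granular against spinous counted 0 members, 1 with the replicate block and 3 among nLRC groups alone, where 2350 of all genes passed. Back bulge counted 4, 2 in both limma fits and 3 to 4 with a library left out. In palate the count of 0 became 1 without the low-count filter (Irx4), and in tongue 1 without the filter, which was neither Irx4 nor Irx5. Palate fits with a library left out leave 1 library in a group, and their counts are not given. With a library left out the counts were 2 to 3 in the back spinous and in the tail LRC contrast, 3 to 4 in tail bulge and 2 to 4 for tail minus back. The replicate block took the counts from 2 to 3 in the back spinous LRC contrast, from 3 to 4 in spinous against basal, the tail LRC contrast and tail bulge, and from 4 to 5 in back bulge (Irx2, adjusted p = 0.00438; Irx5 in tail bulge, adjusted p = 0.0314). It changed no other member's call.

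The sign turned for the following values, all short of the threshold. With 1 library left out, Irx2 in spinous against basal ran from −0.054 to 0.20, Irx5 in granular against spinous from −0.087 to 0.15 and Irx5 in the back basal LRC contrast from −0.37 to 0.013. In the back spinous LRC contrast Irx3 ran from −0.38 to 0.30 and Irx5 from −0.057 to 0.24, both lowest without LRC 2, and Irx3 had −0.023 with the replicate block. In palate Irx1 ran from −2.58 to 0.40 and Irx2 from −1.64 to 0.60, both highest without nLRC 1, and Irx3 had 0.16 and 0.26 in limma. Among LRC groups alone Irx2 in spinous against basal had −0.20, and in granular against spinous Irx5 had −0.040 and Irx1 and Irx4 1.38 each. Irx3 in tail bulge had 0.52 against nLRC alone. The back over tail level ratio turned for Irx1 (0.769 on CPM, 0.481 over protein-coding genes) and Irx3 (0.992 and 0.702), with CPM scaled separately in each tissue. The causes were not tested. By Spearman's rho, 0 to 2 of the 3 genes most like a member were among those named by Pearson's r. The number of all genes past the test ranged over the alternatives from 0 to 219 in the back basal (39), 836 to 4476 in the back spinous (2571) and 342 to 2128 in the tail LRC contrast (690), from 354 to 2455 for spinous against basal (1504), 54 to 2350 for granular against spinous (664), 2057 to 5643 for back bulge (4353), 2716 to 5119 for tail bulge (3693), 0 to 1601 in palate (0), 0 to 236 in tongue (1), 0 to 866 for spinous minus basal (65) and 303 to 1303 for tail minus back (452).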
